A study of Mus musculus with 8 samples.

Results

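The keratins are the genes of the intermediate filament proteins of epithelial cells, and they were followed here in mouse colon by their symbols, every gene named Krt followed by a number and at most 1 letter. The rule found 54 keratin genes among the 52143 genes of the expression table, with no symbol repeated, 28 of type I and 26 of type II. Colon RNA from female mice, 8 weeks old when tamoxifen was begun, was sequenced in 8 samples, 4 in each of 2 groups. Control samples came from Villin1-Cre-ERT littermates, in which the Villin1 promoter drives a tamoxifen-dependent Cre recombinase in the epithelium of villi and crypts. SiglecXII samples came from SIGLEC12-Villin1-Cre-ERT mice, which also carry the coding sequence of human SIGLEC12 at ROSA26 on 1 allele, under a CAG promoter and behind a floxed EGFP and stop cassette that Cre removes. Both groups were given tamoxifen at 10 mg/ml for 5 days, and colons were taken 7 days after the last dose, on day 12. The methods name distal colon as the tissue sequenced after tamoxifen, where the sample labels say only colon. The methods give 3 mice per condition where the labels list 4 samples, they also describe 3 technical replicate libraries made from every sample, and nothing says that the samples came from separate animals or how the libraries relate to them, so p-values measure only the spread between these samples. Levels are in TPM, a unit that is scaled for transcript length and sums to the same total in each sample. Sequencing depth cannot be read from them and is unknown, and the SIGLEC12 transcript was not analysed here.

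Keratin filaments are built from pairs of 1 type I and 1 type II protein, and the pair in use tells the kind of epithelium. Simple epithelia, which are a single layer of cells, as in the colon, use Krt8 with Krt18, Krt19 or Krt20. Stratified squamous epithelia use Krt5 with Krt14 in the basal layer, and above it Krt1 with Krt10 where the surface is cornified, as in epidermis, or Krt4 with Krt13 where it is a moist mucosa. Krt6 proteins with Krt16 and Krt17 are known from wounds, stressed skin and appendages, and a further set forms the hair shaft and the root sheath around it. Colonic mucosa meets squamous epithelium at the anal canal, and perianal skin carries hair. The family was therefore read in each sample as simple against squamous and hair keratins, before SiglecXII was set against Control.

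Of the 54 keratins, 38 reached a TPM of 1 in at least 1 sample, and 16 stayed under 1 in every sample. By class, 6 of 6 simple keratins, 16 of 17 squamous keratins, 13 of 24 hair shaft and root sheath keratins and 3 of 7 others were among the 38. Krt85, a hair keratin, was not analysed here. The genes lie in a pair of clusters with 27 members each, from Krt222 to Krt42 on chromosome 11 (99232761 to 100269871, GRCm38) and from Krt80 to Krt18 on chromosome 15 (101347444 to 102032027). Krt18, a type I gene, is the member at the end of the chromosome 15 cluster beside its partner Krt8.

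**Figure D1:**
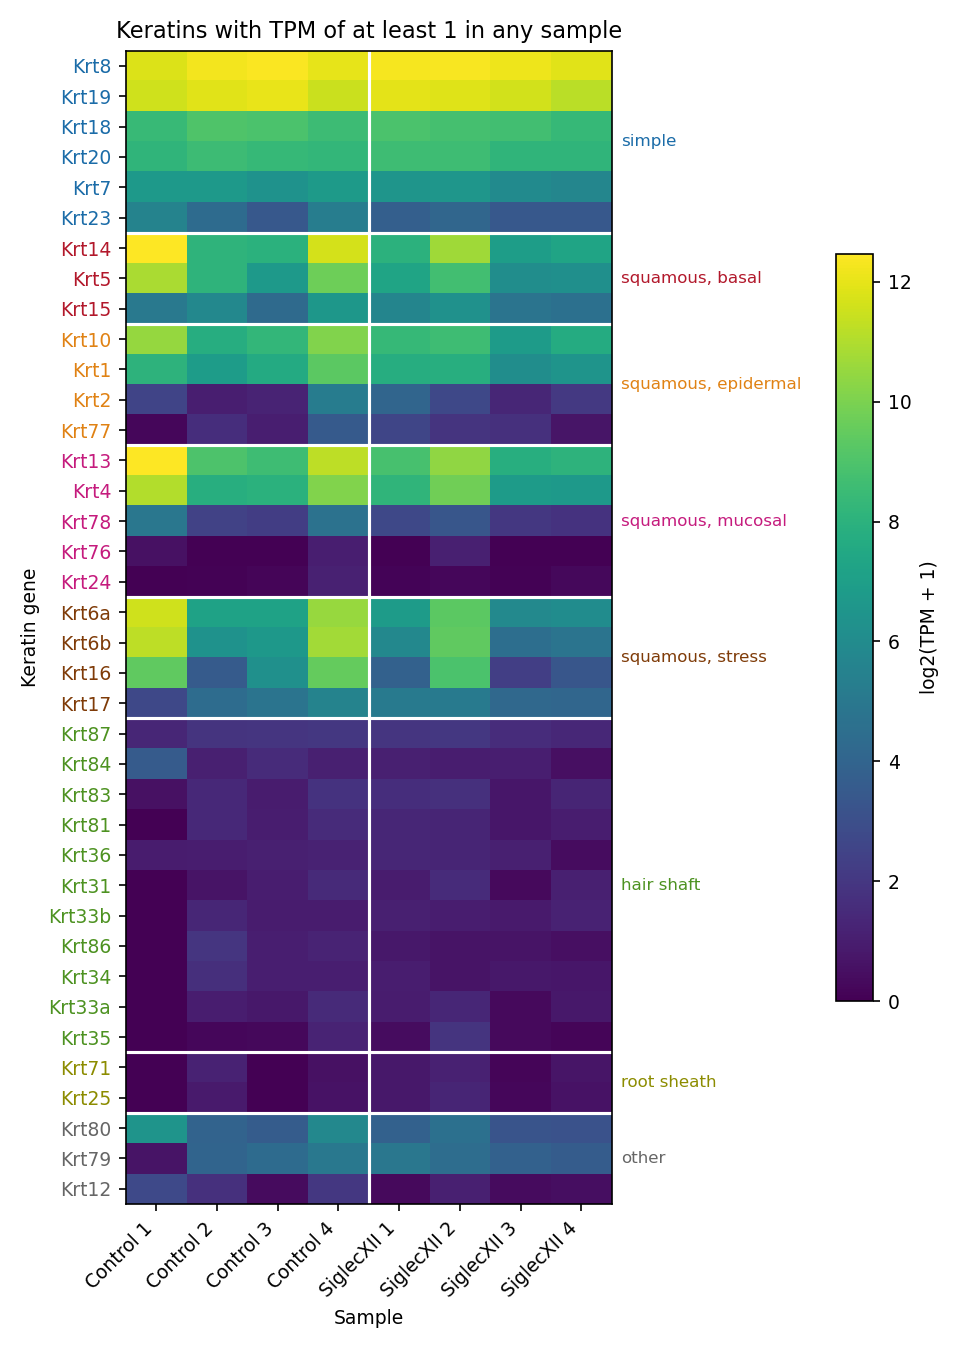
Level of the 38 keratins with a TPM of at least 1 in any sample, as log2(TPM + 1) by color, with genes down the side grouped by class and the 8 samples across. The simple keratins are high in all 8 samples, and most squamous keratins are bright in Control 1, Control 4 and SiglecXII 2.

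The tissue label held against its markers. All 12 intestinal epithelium markers had a TPM of at least 1 in every sample, and their summed TPM was 10030.0, 12809, 12502 and 11782 in Control 1 to 4 and 13007, 12855, 12452 and 11655 in SiglecXII 1 to 4. The most abundant were Lgals4, a galectin of the gut epithelium (4586 to 5672 TPM), Phgr1 (1226 to 2042 TPM) and Epcam, an epithelial adhesion molecule (1216 to 1614 TPM). Of the 8 surface colonocyte markers, led by Car1 (1931 to 2973 TPM), Car4 (988 to 1697 TPM) and Guca2a (517 to 798 TPM), the summed TPM ranged from 5239 to 7232.

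Simple keratins were the most evenly expressed class. Their summed TPM was 7398, 9677, 10504 and 7831 in Control 1 to 4 and 9920.3, 9790.0, 8498 and 6882 in SiglecXII 1 to 4, a 1.53-fold range over the 8 samples. Krt8, the type II partner of the colon's type I keratins, had 3573, 4808, 5352 and 4116 TPM in Control 1 to 4 and 5001, 5151, 4558 and 3863 TPM in SiglecXII 1 to 4. Krt19, a short keratin that lacks the usual tail, had 3052, 3839, 4247 and 2885 TPM in controls and 3942, 3699, 3166 and 2349 TPM in SiglecXII samples. Both were among the abundant transcripts in all samples, and in each the range of SiglecXII samples overlapped that of controls.

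Krt18, the long-known partner of Krt8, had 333, 529, 486 and 375 TPM in controls and 490.0, 438, 413 and 327 TPM in SiglecXII samples. Krt20, which marks differentiated cells near the mucosal surface, had 286, 373, 327 and 308 TPM in the control group, against 385, 391, 289 and 283 TPM in the SiglecXII group. The groups overlapped for both, and SiglecXII 4 was the lowest sample for Krt18, Krt19 and Krt20. Krt8 exceeded Krt18 by 9.08 to 11.8 times and Krt19 by 1.17 to 1.64 times within samples, and these ratios compare TPM of different genes. The sum of the type I simple keratins (Krt18, Krt19, Krt20 and Krt23) over that of the type II ones (Krt7 and Krt8) was 1.011, 0.969, 0.933 and 0.854 in Control 1 to 4 and 0.949, 0.866, 0.840 and 0.758 in SiglecXII 1 to 4. On the log2 scale this ratio differed by -0.14 between the groups, beside a pooled SD of 0.12, and by -0.089 without SiglecXII 4. Type I and type II messages were thus near equal in amount, with a lowest ratio in SiglecXII 4 and a highest in Control 1.

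Krt7, a keratin of ducts and glands, was lower in amount, at 107, 108, 81.5 and 109 TPM in controls and 89.8, 94.2, 61.2 and 51.5 TPM in SiglecXII samples. Krt23, a type I keratin, was the least abundant of the class and the most variable, at 47.4, 19.2, 9.86 and 38.1 TPM in the control group, against 12.5, 16.4, 9.65 and 9.71 TPM in the SiglecXII group. Its highest values were in Control 1 and Control 4, and it was the simple keratin whose range was widest, at 4.91-fold. Relative to the summed intestinal epithelium markers, simple keratins stood at 0.738, 0.755, 0.840 and 0.665 in Control 1 to 4 and 0.763, 0.762, 0.682 and 0.591 in SiglecXII 1 to 4, which makes a log2 difference of -0.10 between the groups beside a pooled SD of 0.16. Without SiglecXII 4 that difference was -0.024 and without Control 3 it was -0.046, while without Control 4 it was -0.16.

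Counting on transcripts limits 1 of these values. Of all 31-base windows in Krt8 transcripts, 36.0% also occur in another gene, and 32.2% of all windows occur in the pseudogene Krt8-ps, which had 14.9 to 22.1 TPM. For Krt18 the share was 11.4%, for Krt19 0.439%, and for Krt20 and Krt23 it was 0.

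Squamous keratins varied far more than simple ones and set the samples apart. Their summed TPM was 23231, 1945, 1866 and 13520.3 in Control 1 to 4 and 1989, 6867, 847 and 1046 in SiglecXII 1 to 4, a 27.4-fold range. Over the simple keratins of the same sample, this is a ratio of 3.14, 0.201, 0.178 and 1.73 in Control 1 to 4 and 0.200, 0.701, 0.0997 and 0.152 in SiglecXII 1 to 4. Control 1 and Control 4 thus held more squamous than simple keratin message, SiglecXII 2 held the next highest ratio, and the other 5 samples lay between 0.0997 and 0.201. Both groups hold high and low samples and they overlap. Of all keratin TPM, the squamous class took 75.6% in Control 1, 62.99% in Control 4, 41.1% in SiglecXII 2 and 9.03% in SiglecXII 3, which was the lowest. All keratins together made up 3.07% of TPM in Control 1 and 0.796% in SiglecXII 4. In bulk tissue, fewer cells of a type and less RNA in each of them cannot be told apart, and which tissue gave the squamous message was not tested.

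**Figure D2:**
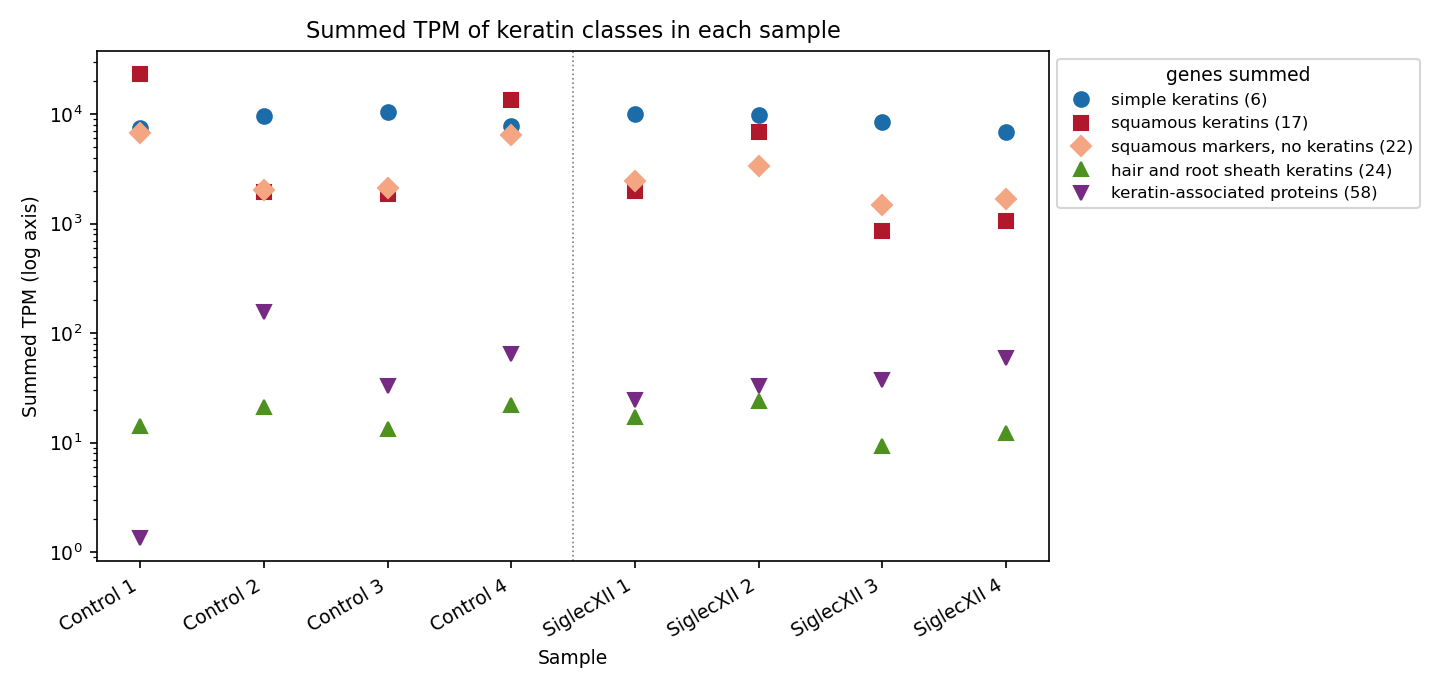
Summed TPM per sample on a log axis for 5 sets of genes, with the number of genes in each set in the key and a dotted line between the groups. Simple keratins lie between 6882 and 10504 TPM in every sample, while squamous keratins run from 847 TPM in SiglecXII 3 to 23231 TPM in Control 1.

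Basal keratins hold the most abundant member of the class on average. Krt14 had 5674, 276, 251 and 3252 TPM in Control 1 to 4 and 258, 1652, 119.9 and 157 TPM in SiglecXII 1 to 4. Its partner Krt5 had 1916, 277, 107 and 841 TPM in controls and 154, 417, 68.7 and 73.8 TPM in SiglecXII samples. For both genes the 3 highest samples were Control 1, Control 4 and SiglecXII 2, and the ratio of Krt14 to Krt5 lay between 0.996 and 3.97. Krt15, another basal keratin that is also known from the bulge of the hair follicle, followed another order, with 31.4, 55.6, 19.0 and 95.8 TPM in controls and 50.6, 77.5, 27.1 and 23.0 TPM in SiglecXII samples. It was highest in Control 4 and SiglecXII 2, and 4 samples exceeded Control 1. The ratio of Krt14 to Krt15 therefore ran from 4.42 in SiglecXII 3 to 181 in Control 1.

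The mucosal pair kept close step. Krt13 had 5644, 511, 386 and 2404 TPM in Control 1 to 4 and 459, 1354, 227 and 270.3 TPM in SiglecXII 1 to 4, and was the most abundant suprabasal keratin. Krt4 had 2109, 228, 249.1 and 1106 TPM in controls and 280.1, 875, 115 and 106 TPM in SiglecXII samples. The 3 highest samples were again the same, and the ratio of Krt13 to Krt4 stayed between 1.55 and 2.68 in all 8 samples while the level of Krt13 changed 24.8-fold. Krt78, found in the upper layers of several stratified epithelia, had 29.3, 4.49, 3.77 and 24.8 TPM in the control group, against 5.42, 9.27, 2.998 and 2.53 TPM in the SiglecXII group. Krt76, a keratin of the oral palate, had 0.484, 0.0309, 0.0167 and 1.04 TPM in controls and 0, 1.14, 0 and 0.0330 TPM in SiglecXII samples. Krt24 had 0.0249, 0.0599, 0.108 and 1.20 TPM in the control group, against 0.0924, 0.169, 0.0427 and 0.213 TPM in the SiglecXII group. These last genes are low, and Krt24 reached a TPM of 1 only in Control 4.

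Of the cornified pair, Krt10 had 1459.6, 216, 307 and 1109 TPM in Control 1 to 4 and 325, 382, 114 and 203 TPM in SiglecXII 1 to 4. Krt1 had 268, 118, 197 and 641 TPM in controls and 216, 225, 67.2 and 88.2 TPM in SiglecXII samples. The ratio of Krt10 to Krt1 lay between 1.51 and 2.30 in 7 samples and was 5.45 in Control 1, where Krt10 was the highest of all samples and Krt1 was second to Control 4. Krt2, a keratin of the upper epidermal layers, had 4.93, 1.08, 1.40 and 37.2 TPM in the control group, against 15.7, 5.43, 1.53 and 3.20 TPM in the SiglecXII group. Krt77, an epidermal relative of Krt1, had 0.164, 2.07, 1.05 and 10.7 TPM in controls and 5.17, 2.64, 2.28 and 0.635 TPM in SiglecXII samples. Both peaked in Control 4, and Krt77 was lowest in Control 1. Krt9, the keratin of palm and sole skin, was under 0.1 TPM in all 8 samples.

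Keratins of wounds and stressed skin form the last set of the class. Krt6a had 3003, 144, 143 and 1486 TPM in Control 1 to 4 and 116, 649.9, 56.8 and 65.0 TPM in SiglecXII 1 to 4. Krt6b had 2404, 81.4, 98.7 and 1733 TPM in controls and 56.1, 692, 22.1 and 27.2 TPM in SiglecXII samples. Krt16, their type I partner, had 682, 10.8, 76.7 and 733 TPM in the control group, against 13.9, 492, 4.02 and 9.12 TPM in the SiglecXII group, a 182-fold range. Control 1, Control 4 and SiglecXII 2 were the 3 highest samples for each. Krt17 did not share this order, with 5.47, 20.4, 26.5 and 46.0 TPM in controls and 33.2, 32.6, 17.6 and 16.5 TPM in SiglecXII samples. It was lowest in Control 1, so that the ratio of Krt16 to Krt17 ran from 0.228 in SiglecXII 3 to 125 in Control 1. These genes are alike in sequence. Of the 31-base windows of Krt6a, 61.99% occur in another gene, as do 56.96% of those of Krt6b, 51.9% of Krt16 and 28.2% of Krt14, and how their reads were divided is uncertain, while the share was 0.168% for Krt13 and 1.14% for Krt4.

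The make-up of the squamous class differed between samples with a high and a low sum. Stress keratins are part of that sum, so this is a description. Stress keratins were 26.2% of squamous keratin TPM in Control 1, 29.6% in Control 4 and 27.2% in SiglecXII 2, and between 11.01% and 18.5% in the other samples. Epidermal keratins were 7.46%, 13.3% and 8.96% in those same samples and 17.3% to 28.3% in the others. Mucosal keratins kept a share of 26.2% to 40.8% and basal keratins one of 20.2% to 32.8% over all 8 samples.

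In all, 11 of the 16 squamous keratins above the TPM limit had Control 1, Control 4 and SiglecXII 2 as their 3 highest samples. Among 13011 tested gene symbols, 3.55% had them, as did 0 of 6 simple keratins and 0 of 13 hair and root sheath keratins. The 3 samples were named from the squamous keratins themselves, so these shares are a description. The exceptions were Krt15, Krt17, Krt2, Krt77 and Krt24.

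Genes outside the family that mark squamous epithelium moved with these keratins. The 22 markers had a TPM of at least 1 in 1 or more samples, none was at 0 in any sample, and their summed TPM was 6756, 2037, 2118 and 6474 in Control 1 to 4 and 2425, 3371, 1466 and 1669.8 in SiglecXII 1 to 4. For 17 of the 22 the 3 highest samples were Control 1, Control 4 and SiglecXII 2. The most abundant, Tgm3, a transglutaminase, was among the exceptions, with 417, 765, 788 and 788 TPM in controls and 684, 802, 601 and 535 TPM in SiglecXII samples. Krtdap, a protein of differentiating keratinocytes, had 262, 318, 387 and 1055 TPM in the control group, against 510.3, 543, 220.4 and 329 TPM in the SiglecXII group, and Cnfn, a component of the cornified envelope, had 1369, 132, 115 and 719 TPM in controls and 135, 315, 76.6 and 94.9 TPM in SiglecXII samples. Krtdap stood out in Control 4, while Cnfn was highest in Control 1. The part that squamous tissue played in the differences between the samples was not tested.

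**Figure D3:**
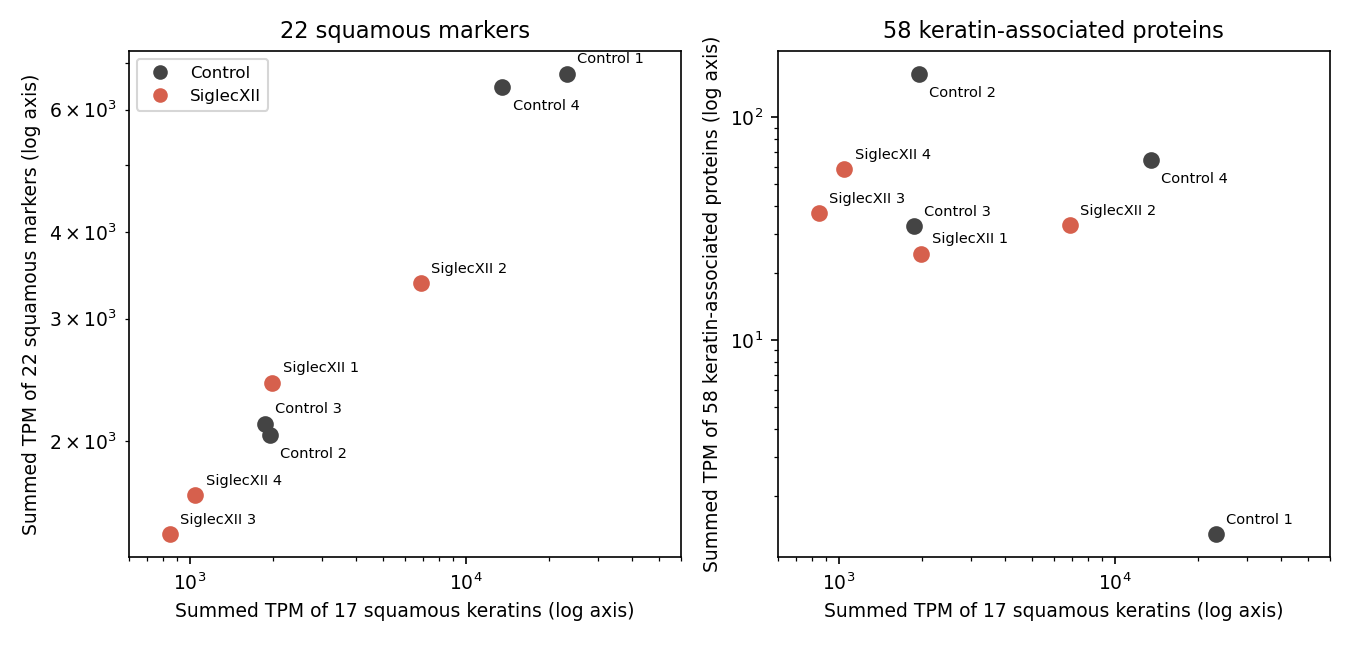
Each point is a sample, with the summed TPM of 17 squamous keratins on the horizontal log axis, and on the vertical log axis that of 22 squamous markers outside the family (left) or of 58 keratin-associated proteins of hair (right). Marker sums are highest in Control 1, Control 4 and SiglecXII 2, the samples highest in squamous keratins, while the hair proteins are lowest in Control 1 (1.34 TPM) and highest in Control 2 (157 TPM).

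Among the proteins that anchor or bind keratin filaments, 18 genes were followed, and for 8 of them the 3 highest samples were the same 3. Their summed TPM was 2381, 1293, 1198 and 2159 in Control 1 to 4 and 1287, 1559.8, 908 and 808 in SiglecXII 1 to 4. Sfn, a 14-3-3 protein abundant in keratinocytes, had 541, 212, 185 and 516 TPM in controls and 229.9, 321, 172 and 128 TPM in SiglecXII samples. Jup, the plakoglobin of desmosomes, had 359, 203, 202 and 299.8 TPM in the control group, against 213, 225, 117 and 94.1 TPM in the SiglecXII group. Hspb1, a small heat shock protein, had 562, 76.1, 65.6 and 416 TPM in controls and 66.2, 229, 40.6 and 51.1 TPM in SiglecXII samples. All 3 were highest in Control 1 and Control 4.

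Hair shaft and root sheath keratins were low in every sample, and Control 1 was not high in them as it was in the squamous class. Their summed TPM was 14.2, 21.0, 13.3 and 21.9 in Control 1 to 4 and 17.2, 23.7, 9.399 and 12.2 in SiglecXII 1 to 4, at most 0.18% of keratin TPM. Of the 14.2 TPM in Control 1, 10.9 came from Krt84 alone. SiglecXII 2 and Control 4, which were also high in squamous keratins, had the highest sums. For the sums, the departure from the squamous order thus rests on Control 1. Single genes departed in other samples too, as Control 2 was the highest sample for 4 of the 13 genes below. Of 24 genes, 13 reached a TPM of 1 somewhere. Krt87 was the most abundant on average, with 1.54, 2.69, 2.83 and 3.003 TPM in controls and 2.75, 3.03, 2.02 and 1.65 TPM in SiglecXII samples. Krt83 had 0.487, 1.68, 0.949 and 2.52 TPM in the control group, against 2.14, 2.27, 0.682 and 1.48 TPM in the SiglecXII group. Krt81 had 0.0266, 1.73, 0.977 and 1.91 TPM in controls and 1.49, 1.48, 0.691 and 0.979 TPM in SiglecXII samples. Control 1 was the lowest sample for each of them.

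The same held for the acidic hair keratins. Krt31 had 0, 0.562, 0.978 and 1.77 TPM in Control 1 to 4 and 0.935, 1.93, 0.231 and 1.17 TPM in SiglecXII 1 to 4. Krt33a had 0, 1.02, 0.726 and 1.76 TPM in controls and 0.919, 1.55, 0.238 and 0.752 TPM in SiglecXII samples, and Krt33b had 0, 1.51, 0.904 and 0.940 TPM in the control group, against 1.11, 0.987, 0.871 and 1.25 TPM in the SiglecXII group. Krt34 had 0, 2.20, 1.03 and 1.08 TPM in controls and 1.008, 0.588, 0.728 and 0.690 TPM in SiglecXII samples. All 4 were listed at 0 in Control 1, which need not mean that no message was there. Krt86 was likewise listed at 0 there, with 0, 2.79, 1.03 and 1.36 TPM in controls and 0.753, 0.600, 0.572 and 0.418 TPM in SiglecXII samples, and so was Krt25, an inner root sheath keratin, with 0, 0.862, 0.0198 and 0.513 TPM in the control group, against 0.764, 1.43, 0.176 and 0.528 TPM in the SiglecXII group. Its type II partner Krt71 had 0.0206, 1.28, 0.0178 and 0.483 TPM in controls and 0.738, 1.20, 0.123 and 0.632 TPM in SiglecXII samples. Control 3 was just below Control 1 for Krt71. In all, Control 1 was the lowest sample for 10 of the 13 genes, the exceptions being Krt71, Krt36 and Krt84, and listed 6 of them at 0, while no other sample listed any of the 13 at 0.

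The last 3 are also hair shaft keratins. Krt35 had 0.0186, 0.173, 0.187 and 1.37 TPM in controls and 0.334, 2.63, 0.255 and 0.115 TPM in SiglecXII samples, lowest in Control 1 and highest in SiglecXII 2 and Control 4. Krt36 had 0.952, 0.966, 1.16 and 1.26 TPM in the control group, against 1.56, 1.47, 1.13 and 0.311 TPM in the SiglecXII group, with SiglecXII 4 lowest. Krt84, which is also made in the papillae of the tongue, had 10.9, 1.14, 1.88 and 1.15 TPM in controls and 1.10, 0.969, 1.07 and 0.411 TPM in SiglecXII samples. It was the only hair keratin highest in Control 1, and its lowest control exceeded its highest SiglecXII sample. Several of these genes share sequence with each other, with 42.0% of the 31-base windows of Krt34, 44.6% of Krt81, 50.0% of Krt86 and 52.4% of Krt87 found in another gene, so values near 1 TPM are uncertain for any single member.

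Keratin-associated proteins, which fill the space between filaments in the hair shaft, are not keratins and were left out by the rule on the symbol, but mark hair. Of 58 such genes, 32 reached a TPM of 1 in at least 1 sample, and their summed TPM was 1.34, 157, 32.6 and 64.4 in Control 1 to 4 and 24.5, 32.8, 37.1 and 58.6 in SiglecXII 1 to 4. Control 2 was the highest sample for 30 of the 32 and Control 1 the lowest for 31, with 27 of them listed at 0 there, some of which were listed at 0 in other samples too and so are ties. The sample highest in squamous keratins was thus lowest in these hair genes, and the sample highest in them was not among the 3 high in squamous keratins.

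Promoter sequence was read beside these levels. RefSeq promoters (GRCm38.p6) were matched to 36 of the 54 keratins, among them 17 of the 24 hair and root sheath keratins. The letters TATAAA, the core of a TATA box, were searched on both strands in the 250 bases before the start and occurred in 12.4% of 32841 promoters of all genes. They occurred in 13 of 17 hair and root sheath keratins (in Krt72 and Krt84 on the opposite strand only), 2 of 10 squamous keratins (Krt10 and Krt76) and 1 of 5 simple keratins (Krt20). The letters TGANTCA, bound by AP-1 factors, occurred in 6.75% of all promoters and in 1 of the 36 keratins (Krt13), and GGGCGG, bound by Sp1, in 32.7% of all and 2 of the 36 (Krt7 and Krt75). A match is a description and was not tested as a site, and a promoter without the letters says only that they are not in this window. The 100 bases before the start are shown for a hair shaft, a root sheath, an epidermal, a corneal and a surface colonocyte keratin that hold TATAAA (in capitals), and then for Krt8, Krt18 and Krt5, which do not.
Krt31 (chr11:100050552-100050651, minus strand): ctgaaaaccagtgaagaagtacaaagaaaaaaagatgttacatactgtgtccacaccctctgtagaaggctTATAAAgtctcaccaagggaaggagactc
Krt25 (chr11:99322952-99323051, minus strand): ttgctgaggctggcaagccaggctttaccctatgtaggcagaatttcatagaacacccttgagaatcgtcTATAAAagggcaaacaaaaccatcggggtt
Krt10 (chr11:99389365-99389464, minus strand): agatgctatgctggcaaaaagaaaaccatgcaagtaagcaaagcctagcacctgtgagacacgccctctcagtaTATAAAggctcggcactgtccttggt
Krt12 (chr11:99422260-99422359, minus strand): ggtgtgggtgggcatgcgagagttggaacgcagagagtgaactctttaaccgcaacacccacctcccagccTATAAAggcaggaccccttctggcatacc
Krt20 (chr11:99438154-99438253, minus strand): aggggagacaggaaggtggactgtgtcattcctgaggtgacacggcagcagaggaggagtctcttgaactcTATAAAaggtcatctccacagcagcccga
Krt8 (chr15:102004343-102004442, minus strand): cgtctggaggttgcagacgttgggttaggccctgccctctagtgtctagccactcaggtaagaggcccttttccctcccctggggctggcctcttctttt
Krt18 (chr15:102028116-102028215, plus strand): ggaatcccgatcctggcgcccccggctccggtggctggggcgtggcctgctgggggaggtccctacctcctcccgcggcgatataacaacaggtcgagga
Krt5 (chr15:101712906-101713005, minus strand): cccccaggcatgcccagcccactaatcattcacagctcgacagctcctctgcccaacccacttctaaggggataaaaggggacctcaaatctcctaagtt
The first T of the capitals lies 29 bases before the start in Krt31, Krt12 and Krt20, 30 bases before it in Krt25 and 26 in Krt10.

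Keratins placed in no class held both patterns. Krt80, made as stratified cells differentiate, had 87.6, 14.5, 11.5 and 55.8 TPM in Control 1 to 4 and 13.8, 22.9, 8.42 and 7.97 TPM in SiglecXII 1 to 4, with the same 3 samples highest. Krt79, known from the hair canal and sebaceous gland, had 0.583, 15.1, 19.4 and 31.3 TPM in controls and 29.5, 20.7, 13.7 and 11.5 TPM in SiglecXII samples. It was lowest in Control 1 by a wide margin, and the other 7 samples were 11.5 or above. Krt12, the keratin of the cornea, had 5.65, 2.26, 0.279 and 3.03 TPM in the control group, against 0.227, 1.11, 0.276 and 0.357 TPM in the SiglecXII group. Control 1, Control 4 and Control 2 were its 3 highest samples, and 46.8% of its 31-base windows also occur in the overlapping gene A830036E02Rik, so its value is uncertain. The other 4 (Krt222, Krt42, Krt88 and Krt90) were under 1 TPM throughout.

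Control 1 and Control 4, the samples highest in squamous keratins, did not hold the same keratins in the same proportions. Of 16 squamous keratins, 8 were higher in Control 1 and 8 in Control 4, with a median difference of 0.06. On the log2(TPM + 1) scale, Control 1 exceeded Control 4 by 1.23 for Krt13, 1.19 for Krt5, 1.014 for Krt6a, 0.93 for Krt4, 0.80 for Krt14, 0.47 for Krt6b, 0.40 for Krt10 and 0.23 for Krt78. It was lower by Control 1 minus Control 4 differences of -3.33 for Krt77, -2.86 for Krt17, -2.69 for Krt2 and -1.58 for Krt15. Smaller ones were -1.26 for Krt1, -1.10 for Krt24, -0.46 for Krt76 and -0.10 for Krt16. Of the 3 unclassed keratins, Krt79 differed by -4.35, Krt12 by 0.73 and Krt80 by 0.64. Of 13 hair and root sheath keratins, 12 were lower in Control 1 than in Control 4, with a median difference of -1.06. Each of these is a single sample, and their difference was not tested.

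**Figure D4:**
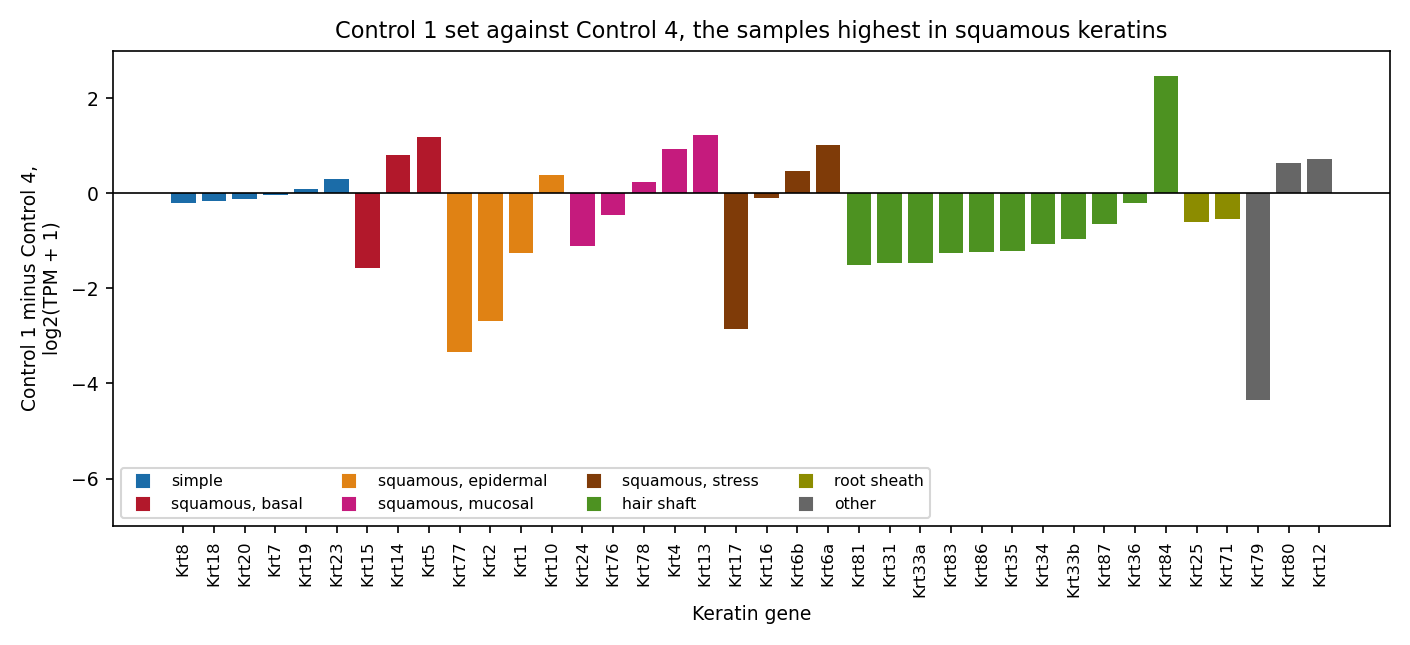
Difference between Control 1 and Control 4 in log2(TPM + 1) for 38 keratins, 1 bar for each gene, colored by class. Bars of mucosal and basal squamous keratins reach up to 1.23. Of the 16 squamous keratins, 8 are below 0, among them Krt77, Krt17, the basal Krt15 and the mucosal Krt24 and Krt76. Bars of Krt79 and 12 of 13 hair and root sheath keratins are below 0 too, and Krt84 is at 2.46.

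SiglecXII was then set against Control over all genes, with limma on log2(TPM + 1) of the 13164 genes that reached 1 TPM in 4 or more samples. Of the 54 keratins, 29 passed this filter and 25 did not. Counts over the 29 are therefore not counts over the family. No keratin passed an adjusted p ≤ 0.05 (0 of 29), where 5 genes did in all, 0.038% of those tested. Picked out only once the values were known, the 5 were Gm13394, Gm45063, Prh1, Gm7336 and Esr1. At unadjusted P ≤ 0.05, 3 of the 29 keratins passed (10.3%), beside 8.87% of all genes, a share near the background. These were Krt12, Krt7 and Krt23. With a fold-change of at least 2 also required, the count was 1 of 29 (Krt12, 3.45%), beside 121 genes in all (0.919%), of which 32 were higher and 89 lower in SiglecXII samples. That split was 40 higher and 34 lower with median centring and 36 higher and 41 lower with quantile normalization. Leaving out 1 sample moved the count of keratins at both limits to 6 without Control 2, 8 without Control 3, 10 without SiglecXII 2 and 0 without any of the other 5. The count of all genes moved to between 65 and 324, and no keratin passed an adjusted p ≤ 0.05 in any of these limma fits. The groups did not overlap for 1 of 29 keratins, Krt84, beside 5.11% of all genes.

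The median log2 difference, SiglecXII minus Control, was -0.15 over all genes tested and -0.48 over the 29 keratins, or -0.33 relative to the median gene. With median centring the median over all genes became 0.06 and with quantile normalization 0.02, and that of the keratins -0.27 and -0.36, while with array weights that of the keratins was 0.06. Without SiglecXII 4 the medians were -0.08 over all genes and -0.32 over the keratins. The shift of the median gene used in centring was -0.37 in SiglecXII 4 and -0.23 in SiglecXII 3, and between -0.02 and 0.18 in the other 6 samples. Of the 29 keratins, 21 had a difference below 0 and 8 above, where 10276 genes were below 0 and 2888 above. Differences of -1 or below were found for 11 keratins (37.9%) and for 220 genes in all (1.67%), and of 1 or above for 0 keratins and for 45 genes (0.342%). The 11 were Krt6b, Krt16, Krt6a, Krt14, Krt5, Krt13, Krt4, Krt10, Krt80, Krt12 and Krt78. With array weights, which let samples count unequally and gave SiglecXII 2 a weight of 6.87 and SiglecXII 4, Control 1 and SiglecXII 3 weights of 0.187, 0.362 and 0.411, none of the keratins had a difference of -1 or below. Without Control 1 the number was 5, and without Control 2 or Control 3 it was 14.

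Simple keratins come first. The log2 difference of Krt8 was 0.07 ± 0.15 (SE), with a 95% interval of -0.27 to 0.40, or 0.22 relative to the median gene. For Krt19 it was -0.10 ± 0.19 (SE) (-0.52 to 0.32), for Krt18 -0.04 ± 0.17 (SE) (-0.43 to 0.36) and for Krt20 0.05 ± 0.14 (SE) (-0.27 to 0.36). These intervals bound a difference to under 0.53 in either direction only in this fit, on all 8 samples and without centring. The bound does not carry over to the other settings. The sign of Krt18 and Krt19 turned with median centring, that of Krt18 and Krt8 with quantile normalization and that of Krt19 with array weights. Krt20 was 0.26 with median centring and 0.21 with array weights, and in each of these settings it was the only keratin at an unadjusted P ≤ 0.05, while its adjusted p from limma ranged from 0.350 to 0.973 over the settings. Krt7 had a difference of -0.48 ± 0.20 (SE) (adjusted p = 0.515 from limma) and Krt23 one of -0.99 ± 0.43 (SE) (adjusted p = 0.515 from limma). Neither passed, with adjusted p from 0.2701 to 0.905 for Krt7 and from 0.289 to 0.905 for Krt23 over the other settings of limma. The difference of Krt7 was -0.27 with median centring and -0.15 with array weights, and that of Krt23 was -0.78 and -0.52. The summed TPM of simple keratins was 8853 ± 1479 (SD, n = 4) in controls and 8773 ± 1414 (SD, n = 4) in SiglecXII samples, a log2 difference of -0.013. That difference was 0.20 with median centring. With each sample left out it ran from -0.094 (without Control 1) to 0.099 (without SiglecXII 4).

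Squamous keratins had large differences with larger spread. Krt6b stood at 8.75 ± 2.60 log2(TPM + 1) (SD, n = 4) in controls and 6.16 ± 2.26 in SiglecXII samples, a difference of -2.59 ± 1.41 (SE) with a 95% interval of -5.78 to 0.59. Krt14 stood at 10.06 ± 2.35 and 8.23 ± 1.70, a difference of -1.82 ± 1.18 (SE) (-4.50 to 0.85). Krt13 stood at 10.32 ± 1.84 and 8.79 ± 1.16, a difference of -1.53 ± 0.89 (SE) (-3.54 to 0.48). The adjusted p from limma was 0.515, 0.529 and 0.515 in turn, and each interval includes 0. High values came from 2 of the 4 controls and 1 of the 4 SiglecXII samples, so the group means rest on few samples.

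The other basal, mucosal, epidermal and stress keratins had differences from -2.57 to 0.27. They were -2.57 ± 1.68 (SE) for Krt16, -2.08 ± 1.14 (SE) for Krt6a, -1.79 ± 0.89 (SE) for Krt5, -1.36 ± 0.87 (SE) for Krt4, -1.30 ± 0.64 (SE) for Krt10, -1.12 ± 0.65 (SE) for Krt78 and -0.94 ± 0.55 (SE) for Krt1. The keratins that did not share the order of samples had -0.09 ± 0.52 (SE) for Krt15 and 0.27 ± 0.54 (SE) for Krt17. They had 0.12 ± 0.67 (SE) for Krt77 and 0.00 ± 0.93 (SE) for Krt2. The shared order itself puts more controls than SiglecXII samples among the highest, so the contrast between these sets restates that order. None of these 11 keratins passed in limma, where the adjusted p ranged from 0.515 to 0.998. Single samples weighed heavily on these values. With each sample left out in turn, the difference of the stress keratins ran from -3.69 (without SiglecXII 2) to -1.77 (without Control 1) for Krt6b, from -4.01 (without SiglecXII 2) to -1.79 (without Control 4) for Krt16 and from -2.85 (without SiglecXII 2) to -1.27 (without Control 1) for Krt6a. For basal keratins it ran from -2.64 (without SiglecXII 2) to -1.02 (without Control 1) for Krt14 and from -2.50 (without Control 3) to -1.11 (without Control 1) for Krt5. Mucosal keratins ran from -2.11 (without Control 3) to -0.82 (without Control 1) for Krt13, from -1.99 (without SiglecXII 2) to -0.76 (without Control 1) for Krt4 and from -1.56 (without Control 3) to -0.67 (without Control 1) for Krt78, and epidermal ones from -1.77 (without Control 2) to -0.85 (without Control 1) for Krt10 and from -1.30 (without Control 2) to -0.49 (without Control 4) for Krt1. With array weights the differences of Krt14, Krt13, Krt4, Krt16, Krt6a and Krt6b turned positive, from 0.07 for Krt6a and Krt13 to 0.97 for Krt16. The median over the 14 squamous keratins tested was -1.33, beside -0.15 for all genes. Of the 14, 11 were below 0, as were 10276 of all 13164 genes, so this count is near the background. As a sum, squamous keratins had a log2 difference of -1.64 and, over simple keratins, one of -1.63, beside pooled SDs of 1.64 and 1.73. Without Control 1 these differences were -0.97 and -0.88, and without SiglecXII 2 they were -2.27 and -2.20.

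**Figure D5:**
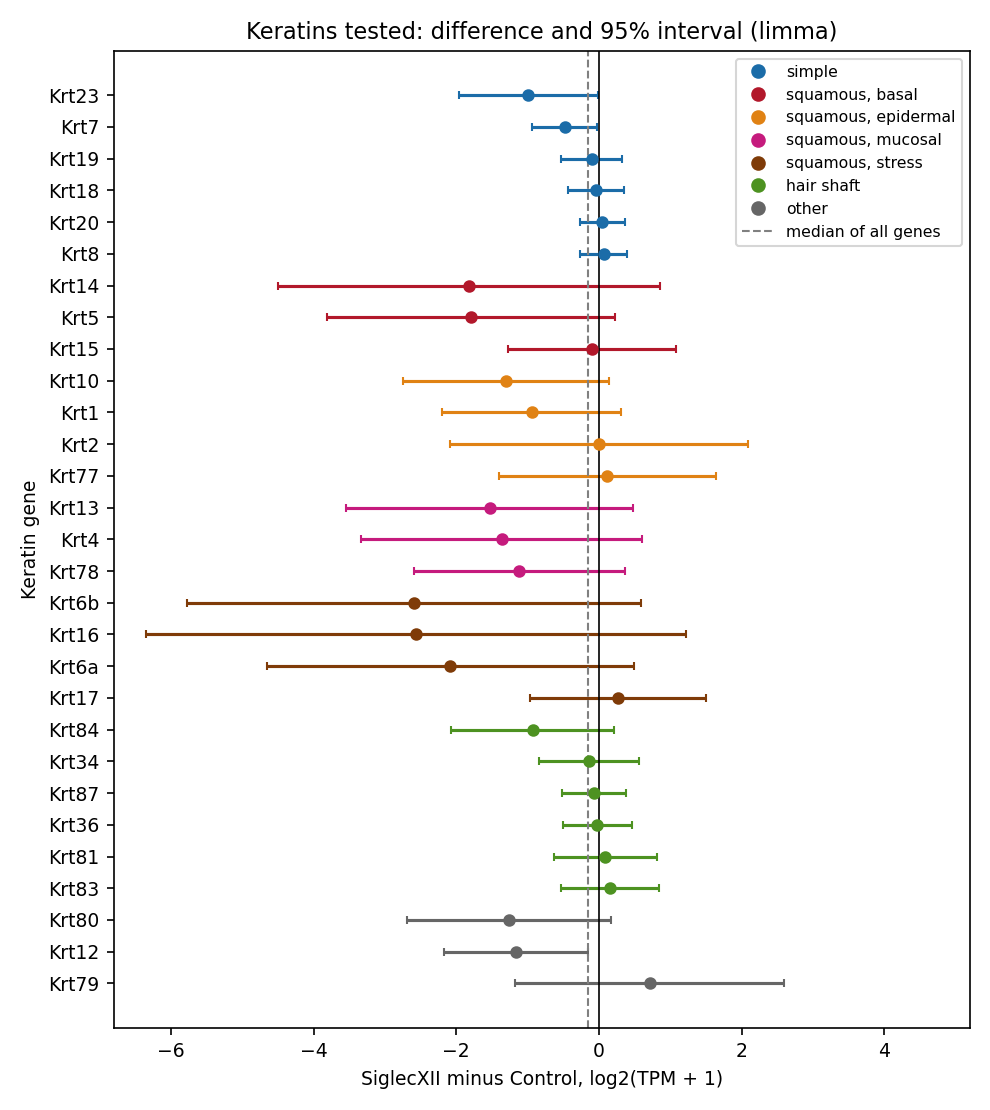
Difference in log2(TPM + 1), SiglecXII minus Control, for the 29 keratins tested, with bars for the 95% interval from limma and colors for class. Simple keratins Krt8, Krt18, Krt19 and Krt20 sit near 0 with narrow bars, squamous keratins reach down to -2.59 with wide bars that include 0 (with array weights Krt14, Krt13, Krt4, Krt16, Krt6a and Krt6b turned positive), and the dashed line is the median of all genes at -0.15.

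Of the hair keratins 6 were tested, all of the shaft and 0 of the root sheath, and their median difference was -0.04. The difference of Krt84 was -0.93 ± 0.51 (SE) (adjusted p = 0.515 from limma), and without Control 1 it was -0.34. Those of Krt83, Krt34, Krt87, Krt81 and Krt36 lay between -0.14 and 0.16. Of the unclassed keratins, Krt12 had -1.16 ± 0.45 (SE), Krt80 -1.26 ± 0.63 (SE) and Krt79 0.71 ± 0.83 (SE), with adjusted p of 0.515, 0.515 and 0.681 from limma. Krt12 no longer passed an unadjusted P ≤ 0.05 with a fold-change of 2 with median centring, array weights or variance not moderated, and it is not among the genes tested when 5 TPM is required. With 1 sample left out in turn it passed without Control 3 or SiglecXII 2 and in none of the other 6 fits. Without Control 1 the difference of Krt79 was -0.24, and that of Krt80 ran from -1.70 (without Control 3) to -0.76 (without Control 1) with each sample left out.

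Markers of other cells were read beside these differences. No listed gene passed an adjusted p ≤ 0.05 in limma. Of all genes tested, 10276 of 13164 had a difference below 0 and 8.87% an unadjusted P ≤ 0.05 in limma, and the lists are given beside these shares. The 22 squamous markers were all below 0, with a median of -0.96, and 1 of them (Dsg3, a desmosomal cadherin) had an unadjusted P ≤ 0.05. The 18 partners of keratin filaments were all below 0 too, with a median of -0.33, and 5 had an unadjusted P ≤ 0.05 (8.87% of all genes). Sfn had a difference of -0.69 ± 0.41 (SE), Jup one of -0.76 ± 0.31 (SE) and Hspb1 one of -1.29 ± 0.80 (SE). Only Jup of these was among the 5. The 12 intestinal epithelium markers had a median of 0.00, 6 below and 6 above, and the 8 surface colonocyte markers one of 0.01, with none of either list at an unadjusted P ≤ 0.05.

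Crypt base and smooth muscle markers had differences below 0 throughout, as did 10276 of all 13164 genes. The 7 crypt base markers tested had a median of -0.57, with 3 at an unadjusted P ≤ 0.05 (8.87% of all genes), and the summed TPM of the list was 105, 190.2, 165 and 161 in Control 1 to 4 and 141, 116, 89.8 and 60.9 in SiglecXII 1 to 4. Its most abundant genes were Myb, Top2a and Smoc2, with differences of -0.54 ± 0.25 (SE), -0.70 ± 0.42 (SE) and -0.25 ± 0.19 (SE). None of these was among the 3 at an unadjusted P ≤ 0.05 in limma, which were Ascl2, Lgr5 and Axin2. The 8 smooth muscle markers had a median of -0.69, with 4 at an unadjusted P ≤ 0.05 (8.87% of all genes). Their summed TPM was 878, 645, 1028 and 833 in Control 1 to 4 and 658, 579.8, 665 and 311 in SiglecXII 1 to 4, and Tagln, Actg2 and Acta2, proteins of the contractile apparatus, led the list. SiglecXII 4 was the lowest sample for all 7 crypt and all 8 muscle markers, and it was lowest for 9 of the 38 keratins. The part of these cells in the keratin values was not tested.

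Mesothelium, leukocyte and adipocyte markers were followed as well. Mesothelium markers summed to 4.27, 2.29, 0.763 and 3.57 in Control 1 to 4 and 0.637, 0.916, 2.13 and 25.9 in SiglecXII 1 to 4, led by Msln, Upk1b and Upk3b, so that SiglecXII 4 stood above the rest. Leukocyte markers, led by Lyz2, Jchain and Itgam, summed to 9.93 to 49.0 TPM and were highest in Control 1, and the 2 tested had a median difference of -0.61. Adipocyte markers, led by Cfd, Fabp4 and Adipoq, summed to 6.20 to 50.7 TPM, with a median difference of 0.05 over the 3 tested. No marker of any list was at 0 in all 8 samples.

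Other intermediate filament genes were read in the same way. Of 16 genes, 8 were tested, with a median difference of -0.24 and 2 at an unadjusted P ≤ 0.05 (8.87% of all genes), and of the 9 that reached a TPM of 1 in some sample, 0 had Control 1, Control 4 and SiglecXII 2 as their 3 highest samples, a count near the 3.55% of all tested symbols. Lmna, a lamin of the nuclear envelope, had 196, 248, 268 and 217 TPM in controls and 300.2, 245, 163 and 118 TPM in SiglecXII samples. Des, the desmin of muscle, had 93.2, 69.0, 104 and 77.1 TPM in the control group, against 59.4, 57.8, 65.3 and 31.7 TPM in the SiglecXII group, and Lmnb1, another lamin, had 17.8, 33.2, 33.6 and 27.6 TPM in controls and 27.9, 26.7, 18.0 and 9.44 TPM in SiglecXII samples. The difference of Des was -0.70 ± 0.23 (SE) (adjusted p = 0.515 from limma), and Des is also among the smooth muscle markers.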

How the data were processed

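The authors deposited log2(TPM + 1) values from kallisto 0.45.0 on GRCm38, and these were turned back to TPM for sums and ratios. Depth is unknown, since TPM sum to a fixed total. Groups came from the sample labels. Genes reaching 1 TPM in 4 or more samples were tested with limma 3.58.1 in R 4.3.3 on log2(TPM + 1), with variances moderated along a trend and p-values adjusted over all genes tested (Benjamini and Hochberg). Sums and ratios were not tested. Keratins named with values in each sample were those with a TPM of at least 1 in any sample, and of the marker lists the most abundant genes. The keratin classes and the lists of squamous, intestinal epithelium, surface colonocyte, crypt base, mesothelium, smooth muscle, immune and adipose markers, keratin partners, other intermediate filaments and keratin-associated proteins were chosen with earlier results of these data known. Other settings tried were a 5 TPM filter, no filter, a pseudocount of 0.1, median centring, quantile normalization, array weights, variance not moderated, a block for replicate number, the mean of log values in place of a sum, and leaving out each sample. Sums over all rows of a symbol were tried too. Shared 31-base windows were counted over mouse transcripts, and promoters came from RefSeq. Python 3.11.15, pandas 2.3.3, scipy 1.17.1 and matplotlib 3.10.9 were used.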

Additional observations from a re-analysis of the deposited data

Results flagged for a closer look

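In 6 of 108 groups of 4 samples that were examined, the highest or lowest sample lay far from the other 3, where chance alone gives about 1 in 20, or 5.4. The value is the gap to the nearest sample over the whole range of the group, on log2 values. It was 0.898 for Krt24 in controls, with Control 4 highest, and 0.936 for Krt7 in controls, with Control 3 lowest. Among SiglecXII samples it was 0.848 for Krt35 and 0.957 for Krt76, with SiglecXII 2 highest in both, and 0.834 for Krt84, with SiglecXII 4 lowest. For the summed adipocyte markers in SiglecXII samples it was 0.876, with SiglecXII 1 lowest. The number found is close to the number that chance gives.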

How the results depend on the processing

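Of the differences of single keratins over all settings, 407 kept their sign and 54 did not. The filters, variance not moderated and the replicate block leave a difference as it is, so the signs kept there say nothing of stability. Of the values for sums, ratios and counts, 100 stayed within 1 SD between samples (for counts, within 1.5 times) of the reported value and 34 moved further. That SD is large for squamous keratins. The 100 include sums over all rows of a symbol, which could not differ because no keratin symbol is repeated. They also include the count of keratins at an adjusted p ≤ 0.05 in limma, which was 0 in every setting. With the mean of log2(TPM + 1) in place of the sum, the difference was -1.01 for squamous keratins (-1.64 as reported), -0.76 for squamous over simple keratins (-1.63), -0.249 for simple keratins (-0.013), 0.0226 for hair keratins (-0.22), -0.238 for simple keratins over intestinal epithelium markers (-0.10) and -0.0623 for type I over type II simple keratins (-0.14). For summed hair keratins the difference was -0.0107 with median centring. With each sample left out it ran from -0.45 (without SiglecXII 2) to -0.0081 (without SiglecXII 3). No keratin passed an adjusted p ≤ 0.05 in limma under any setting, with 3 at unadjusted P ≤ 0.05 as reported and 0 to 11 over the settings.

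Genes at an adjusted p ≤ 0.05 in limma (5 as reported) numbered 3 when 5 TPM was required, 3 with no filter, 3 with variance not moderated, 18 with array weights, and 2 to 6 with each sample left out. Genes at an unadjusted P ≤ 0.05 and a fold-change of 2 (121) numbered 63 when 5 TPM was required, 204 with a pseudocount of 0.1, 74 with median centring, 77 with quantile normalization, 53 with variance not moderated, and 65 to 324 with each sample left out. Keratins at these limits (1) numbered 0 when 5 TPM was required and with median centring, array weights or variance not moderated, 2 with a pseudocount of 0.1, 3 with the replicate block, and 0 to 10 with each sample left out. The cause was not tested.

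Signs turned for these keratins. With array weights, differences were 0.0722 for Krt13, 0.40 for Krt14, 0.44 for Krt15, 0.97 for Krt16, 0.0697 for Krt19, 0.20 for Krt36, 0.42 for Krt4, 0.0672 for Krt6a, 0.24 for Krt6b, -0.15 for Krt77 and 0.0586 for Krt87. With median centring they were 0.12 for Krt15, 0.18 for Krt18, 0.11 for Krt19, 0.0773 for Krt34, 0.19 for Krt36 and 0.15 for Krt87. With quantile normalization they were 0.0566 for Krt15, 0.0206 for Krt18, 0.0025 for Krt34, 0.0284 for Krt36, -0.0374 for Krt8 and 0.12 for Krt87. A pseudocount of 0.1 gave 0.17 for Krt34. The cause was not tested.

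With each sample left out, the difference ran from -0.47 to 0.29 for Krt15, -0.29 to 0.66 for Krt17, -0.15 to 0.0747 for Krt18, -0.20 to 0.0515 for Krt19, -0.51 to 0.91 for Krt2, -0.0278 to 0.13 for Krt20, -0.45 to 0.11 for Krt34, -0.13 to 0.19 for Krt36, -0.34 to 0.77 for Krt77, -0.24 to 1.21 for Krt79, -0.0359 to 0.16 for Krt8, -0.23 to 0.27 for Krt81, -0.0462 to 0.37 for Krt83 and -0.21 to 0.0443 for Krt87.

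Leaving out Control 1, Control 4 and SiglecXII 2 together was chosen after seeing the data, and is given for simple keratins and for the counts over all genes only, since these samples were picked by their squamous keratins. It gave a log2 difference of -0.27 for summed simple keratins, -0.15 for Krt20, -0.19 for Krt8, -0.33 for Krt18, -0.39 for Krt19, -0.51 for Krt7 and -0.36 for Krt23, with 4 genes at an adjusted p ≤ 0.05 and 101 genes at an unadjusted P ≤ 0.05 and a fold-change of 2. The signs of Krt8 and Krt20 turned. Simple keratins over intestinal epithelium markers differed by -0.24 (-0.10 as reported), and type I over type II simple keratins by -0.17 (-0.14).

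The values did not show that replicate numbers pair the samples, and they cannot exclude it. After centring by group, controls and SiglecXII samples of the same number correlated at -0.165, -0.204, 0.103 and -0.003, and 0 samples correlated best with the one of their own number. With the number as a block, 4 genes passed an adjusted p ≤ 0.05 and 139 genes and 3 keratins (Krt5, Krt10 and Krt12) passed an unadjusted P ≤ 0.05 and a fold-change of 2.

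With 4 samples per group and a wide spread of squamous keratins, intervals are wide, such as -5.78 to 0.59 for Krt6b. Depth is unknown, so the counting error of values near 1 TPM could not be estimated.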
